A study of Mus musculus with 14 samples.

Results

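Skap2, Slain2 and Elf3 are the protein-coding genes whose transcription start sites (TSS) lay nearest to the SIM2 sites ranked 1, 2 and 3 by mean normalized tag count over the 3 clones, among the 346 sites found in all of them. The genes were therefore chosen by the SIM2 signal itself, and every SIM2 value below is a description of chosen loci with no test. All peaks with a centre within 100 kb of the 3 gene bodies were taken, which gave 46 of the 24416 peaks in 8 lists. Of these, 31 lay near Skap2, 8 near Slain2 and 7 near Elf3.

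The lists come from ChIP-seq in mouse embryonic stem (mES) cells. The clones A6, B8 and C4 carry a Flag-tagged mouse Sim2 followed by an IRES-Venus reporter, under the hCMV*-1 promoter of a ROSA-TET system, and the EB3 parental line carries no Sim2-Flag transgene. All were held in tetracycline-free medium for 26 h, which turns the transgene on, so SIM2 was measured as an overexpressed, tagged protein in lines that are each 1 clone. Flag ChIP of the 3 clones gave 3 SIM2 replicates, and Flag ChIP of EB3 gave the control. NANOG, OCT4, MED1 and MED12 were measured in A6, each in a single library without replicates.

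SIM2 is a bHLH-PAS transcription factor that binds DNA together with a partner such as ARNT, at sites built around a short core that includes ACGTG. NANOG and OCT4 are core factors of the pluripotent state and often occupy the same enhancers in mES cells. MED1 and MED12 are subunits of Mediator, the complex that links factors bound at enhancers with RNA polymerase II at promoters. Skap2 encodes an adaptor protein of Src-family kinase signaling, Slain2 a protein of growing microtubule ends, and Elf3 an ETS-family transcription factor known from epithelial cells.

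The sequences of the SIM2 sites near the genes are given first, because 5 of them carry the SIM2 peaks found in all 3 clones and the last carries peaks of all 4 other factors. Each is the 200 bp around the site centre on the plus strand of NCBIM37 (mm9). Capitals mark exact matches, on either strand, to any of 9 short patterns. They are the octamer ATGCAAA bound by OCT4, a SOX pattern CNATTGT, a NANOG-like pattern CCTGCTG, a KLF pattern CCNCACCC, an ESRRB pattern CAAGGTCA, a TEAD pattern CATTCC, a STAT pattern TTCCNGGAA, the bHLH-PAS core ACGTG, and ATTCNNNNC. The last was read from a motif found earlier in these same SIM2 sites and has no named factor.
Skap2 strongest site, chr6:52028831-52029030: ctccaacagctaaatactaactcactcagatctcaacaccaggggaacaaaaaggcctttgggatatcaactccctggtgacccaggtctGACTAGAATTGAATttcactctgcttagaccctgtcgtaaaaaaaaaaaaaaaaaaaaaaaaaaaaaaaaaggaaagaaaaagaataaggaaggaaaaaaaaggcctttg
Slain2 strongest site, chr5:73293654-73293853: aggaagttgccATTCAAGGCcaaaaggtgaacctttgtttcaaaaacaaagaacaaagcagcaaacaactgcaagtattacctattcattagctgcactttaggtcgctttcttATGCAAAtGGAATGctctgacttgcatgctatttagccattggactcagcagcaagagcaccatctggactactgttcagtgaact
Elf3 strongest site, chr1:137114260-137114459: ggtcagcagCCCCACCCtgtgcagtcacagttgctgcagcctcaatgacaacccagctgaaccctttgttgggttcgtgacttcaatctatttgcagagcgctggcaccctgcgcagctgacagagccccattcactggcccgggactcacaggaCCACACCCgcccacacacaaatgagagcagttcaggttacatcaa
Skap2 site at -63909 bp, chr6:52026358-52026557: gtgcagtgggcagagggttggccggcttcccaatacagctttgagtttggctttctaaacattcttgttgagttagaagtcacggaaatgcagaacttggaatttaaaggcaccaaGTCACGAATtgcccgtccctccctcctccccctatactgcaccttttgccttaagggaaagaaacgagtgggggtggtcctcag
Skap2 site at -18821 bp, chr6:51981270-51981469: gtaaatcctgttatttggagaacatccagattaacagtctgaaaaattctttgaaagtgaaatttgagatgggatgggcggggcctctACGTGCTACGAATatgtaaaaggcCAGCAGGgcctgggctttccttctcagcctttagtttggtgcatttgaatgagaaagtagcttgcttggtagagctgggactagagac
Skap2 site in Gm15055, clone A6 only, chr6:52056114-52056313: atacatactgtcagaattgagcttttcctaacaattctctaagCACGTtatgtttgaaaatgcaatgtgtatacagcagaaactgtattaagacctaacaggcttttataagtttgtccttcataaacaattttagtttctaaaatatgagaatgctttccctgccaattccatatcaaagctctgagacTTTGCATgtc

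The 3 strongest sites held different patterns. At the Skap2 site, 2 overlapping matches to ATTCNNNNC, ATTCTAGTC and ATTCAATTC on the minus strand, lay -5 and 0 bp from the centre, and no other pattern was found. The Slain2 site held the octamer at 18 bp from the centre and the TEAD pattern at 26 bp, separated by a single base, with a further ATTCNNNNC match at -84 bp. The Elf3 site held 2 KLF matches at its edges, at -86 and 60 bp, and none of the 9 patterns in its central 100 bp. None of the 3 had a match to the bHLH-PAS core ACGTG. The letters of a short pattern can be missing from a window where a factor is bound, and a match is not a bound site.

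The core ACGTG was found at one of the weaker sites. At the Skap2 site at -18821 bp it lay -9 bp from the centre and shared a base with an ATTCNNNNC match, ATTCGTAGC on the minus strand, and the NANOG-like CCTGCTG lay at 16 bp. The Skap2 site at -63909 bp held a single match, ATTCGTGAC at 21 bp. Over the 1229 SIM2 sites found in at least 2 clones, ACGTG was present in 14.1% of the windows of 200 bp, against 5.41% of the windows around NANOG peaks. ATTCNNNNC was present in 49.3% against 36.1%, the octamer in 18.6% against 14%, the KLF pattern in 13.4% against 9.01%, the TEAD pattern in 18.5% against 14.6% and the NANOG-like pattern in 17.8% against 13.8%. The patterns that had no match at the 5 sites found in all 3 clones, SOX, ESRRB and STAT, were present in 16.9%, 7.08% and 1.63% of the SIM2 windows and in 20.2%, 5.87% and 1.33% of the NANOG windows. ATTCNNNNC, which had a match at 4 of the 5 sites, is thus a common pattern, and part of its excess was set by its origin in these sites. The study's motif search in its SIM2 sites also found motifs similar to those of OCT4, SOX2, NANOG and KLF4. The excess of the octamer, KLF and NANOG-like patterns is therefore not independent of that search.

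The windows also differed in base composition. GC content was 36% at the Skap2 site, 41.5% at the Slain2 site and 57% at the Elf3 site, whereas the median over the 1229 sites was 47.5% and their 10th and 90th percentiles were 41% and 54%. The Skap2 and Elf3 sites were thus outside that range on opposite sides. The Skap2 window contains a run of 33 A from 29 to 61 bp to the right of the centre. A run of at least 33 A or T was present in 2 of the 1229 windows (0.163%) and in 12 of the 14815 windows around NANOG peaks (0.081%). That cutoff is the length of the Skap2 run, which is itself counted. Runs of at least 20 were present in 0.57% of the SIM2 windows and 0.999% of the NANOG windows. How such a run affected the mapping of reads was not tested.

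The Skap2 site lay on chromosome 6 (chr6:52028880-52028980), in intergenic sequence 66382 bp upstream of the Skap2 TSS (gene body chr6:51809165-51962548, minus strand). Its normalized tag count, a signal of the peak scaled by the authors' peak caller to library size, was 42.5 in A6, 19.7 in B8 and 17.6 in C4. These were the highest value of the 2387 A6 peaks, the second of the 2137 B8 peaks and the highest of the 631 C4 peaks.

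The Slain2 site lay on chromosome 5 (chr5:73293703-73293803), in intergenic sequence 11790 bp upstream of the TSS of Slain2 (chr5:73305543-73370068, plus strand). Its normalized tag count was 39.5 in A6, 20.4 in B8 and 14.7 in C4, at ranks 2, 1 and 2 of the lists. By this measure the Skap2 and Slain2 sites held the first and second place of every clone's list, in one order in A6 and C4 and in the other order in B8. By all tags of the peak, the Slain2 site was at rank 3 in B8, with 46 tags, behind the Skap2 and Elf3 sites with 51 tags each.

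The Elf3 site lay on chromosome 1 (chr1:137114309-137114409), 40690 bp downstream of the TSS of Elf3 (chr1:137150151-137155049, minus strand) and beyond the end of the gene. Its normalized tag count was 32.6 in A6, 19.1 in B8 and 13.2 in C4, at ranks 14, 3 and 5. The site just outside the choice, 40446 bp from the TSS of Sall1, had values of 34.8, 18.4 and 11.7 in the same order of clones, and its mean of 21.63 equalled that of the Elf3 site to the rounding of the lists. The next, near Klf5, had a mean of 20.4. The Skap2 and Slain2 sites had means of 26.6 and 24.87. The tie and these gaps hold for the measure that chose the genes, which gives the clones unequal weight.

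**Figure D1:**
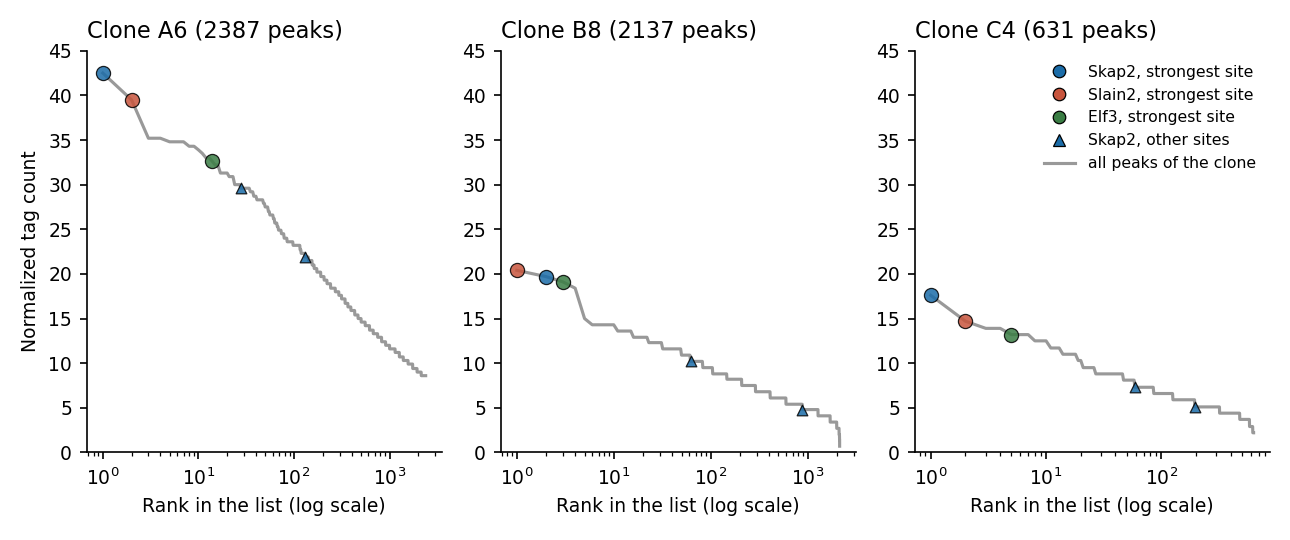
Normalized tag count (vertical axis, linear) of all SIM2 peaks in each clone against their rank in the list (horizontal axis, log scale), grey line. Circles mark the strongest sites of Skap2, Slain2 and Elf3, and triangles the other 2 Skap2 sites. In A6 the Skap2 and Slain2 peaks, at 42.5 and 39.5, lie above the rest of the curve, and the Elf3 peak, at 32.6, lies within it at rank 14.

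The normalized tag count cannot be compared between clones as a size. The lists also give the total tags of each peak, and these were scaled to 10 M mapped tags (M stands for megatags), with depths read from the equal steps between the deposited values. The depths were 23.3 M for A6, 14.7 M for B8 and 13.6 M for C4. The ratio of the normalized tag count to the tags of the peak per 10 M had a median over peaks of 1 in A6, but of 0.5258 in B8 and 0.5 in C4. The reason is not given in the sources used here. The exact Poisson 95% intervals given with tags cover counting error only.

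On that scale the clones differed less. The Skap2 peak held 99 tags in A6 (95% interval 80.5 to 121), 51 in B8 (38.0 to 67.1) and 42 in C4 (30.3 to 56.8), which were 42.5, 34.7 and 30.8 tags per 10 M, 36.0 ± 5.94 (SD, n = 3). The Slain2 peak held 92, 46 and 37 tags, or 39.5, 31.3 and 27.1 per 10 M, 32.6 ± 6.28 (SD, n = 3). The Elf3 peak held 76, 51 and 35 tags, or 32.6, 34.7 and 25.7 per 10 M, 31.0 ± 4.73 (SD, n = 3). Compared within a clone, the Skap2 peak exceeded the Slain2 peak in 3 of 3 clones, by 3, 3.4 and 3.67 tags per 10 M, although the counting intervals of the 2 peaks overlapped in each clone. It exceeded the Elf3 peak in A6 and C4, by 9.87 and 5.13, and equalled it in B8. The Slain2 and Elf3 peaks had no common order, with differences of 6.86, -3.4 and 1.47. C4 was the lowest clone at all 3 sites.

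On the same scale the site near Sall1 had 34.75 (A6), 25.87 (B8) and 19.07 (C4), with a mean of 26.6 ± 7.87 (SD, n = 3), and the site near Klf5 had a mean of 27.4 ± 7.36 (SD, n = 3). The Skap2 and Slain2 peaks were above both in 3 of 3 clones. The Elf3 peak was above both in B8 and C4 and below both in A6. The same clones set the ranks by which the sites were chosen. Their agreement here, and on the Skap2 peak over the Slain2 peak, is therefore no independent support for the order.

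Fold over the input, computed by the authors' peak caller, was 27.94 (A6), 21.7 (B8) and 16.37 (C4) at the Skap2 site. It was 15.67, 19.57 and 16.74 at the Slain2 site, and 21.45, 21.7 and 13.65 at the Elf3 site. In between 83.99% and 92.28% of the peaks of these 3 lists the input value equalled its lowest value in the list, so that fold mostly follows the ChIP tags. The Slain2 peak of A6 was an exception, with an input value of 3 against the lowest of 1.8, and its fold in A6 was the lowest of the 3 genes although it had more tags than the Elf3 peak. In C4 the input value was 2.6 at the Skap2 and Elf3 sites, against the lowest of 2.2. Against the local background the Elf3 peaks stood out most, at 32.18, 34.47 and 31.67 fold, compared with 25.15, 27.74 and 28.09 at the Slain2 site and 17.57, 23.41 and 21.8 at the Skap2 site.

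The EB3 control list had no peak within 100 kb of any of the 3 genes, out of its 81 peaks. Sites matched by an EB3 peak were dropped before the ranking, so none could lie at the strongest sites. Over all 22367 protein-coding genes the median count of EB3 peaks was 0 as well. The EB3 library was the deepest of the Flag ChIPs, with 28.7 M tags, and its lowest listed peak held 18 tags. The lists give no value where no peak was called, so a weaker EB3 signal at these sites cannot be read from them.

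**Figure D2:**
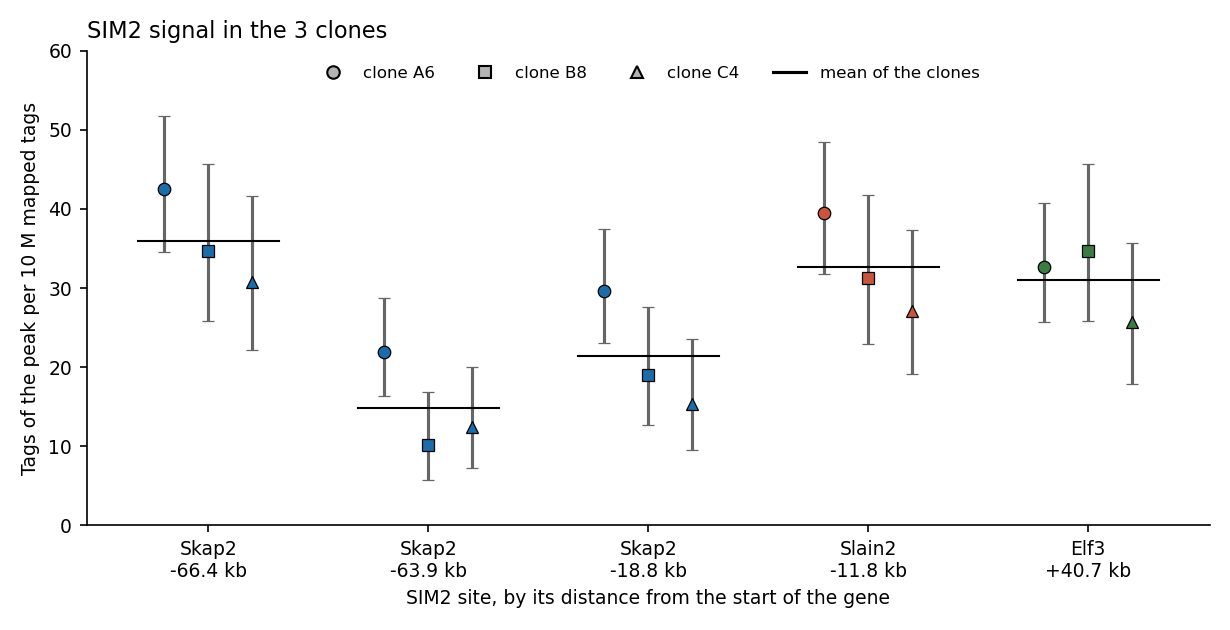
Tags of the peak per 10 M mapped tags (vertical axis) at the 5 SIM2 sites found in all 3 clones near Skap2 and at Slain2 and Elf3, with symbols for the clones, exact Poisson 95% intervals as bars, and the mean of the clones as a horizontal line. The strongest sites of the 3 genes have means of 36.0, 32.6 and 31.0, and the other Skap2 sites have 14.9 and 21.4.

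Skap2 was the only one of the 3 genes with further SIM2 sites in at least 2 clones. The site at -18821 bp (chr6:51981319-51981419) lay between the strongest site and the TSS, 47561 bp from the strongest site. Its normalized tag count was 29.6 in A6, 10.2 in B8 and 5.1 in C4, at ranks 28, 62 and 195. By tags, 69, 28 and 21, it ranked 28, 57 and 36, so that its low place in C4 rests on the normalization.

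The site at -63909 bp (chr6:52026407-52026507) lay 2473 bp from the strongest site. It had 21.9, 4.8 and 7.3, at ranks 131, 880 and 59 of the clones' lists, with 51, 15 and 17 tags. In tags per 10 M the 2 further sites had 21.4 ± 7.37 and 14.9 ± 6.19 (SD, n = 3), below the strongest site in each clone. The counting intervals of the strongest and the nearer site did not overlap in any clone (34.5 to 51.7 against 16.3 to 28.8 tags per 10 M in A6, 25.8 to 45.6 against 5.71 to 16.8 in B8, and 22.2 to 41.6 against 7.26 to 19.96 in C4). The strongest site was picked by its signal in these same clones, so this order and gap follow in part from the choice and test nothing.

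A group of 3 SIM2 sites is uncommon. Of the 1229 sites, 43 (3.50%) had at least 2 other sites within 50 kb, as the strongest Skap2 site had. Within 100 kb of the gene body, 0.340% of 22367 protein-coding genes had 3 or more sites, and of the 885 genes whose window differed in length by at most 10% from that of Skap2, 1.02% did. Skap2 has a window of 353 kb, longer than the 265 kb of Slain2 and the 205 kb of Elf3, so the share among genes of similar length is closer than that over all genes. Both shares include genes with no site, whereas Skap2 was chosen for having one. Of the 2988 genes with at least 1 site, 76 had 3 or more. Slain2 and Elf3 had a single site each, as 13.4% of genes have at least one. Because each gene was chosen for a site, a count of 1 follows from the choice.

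In addition, A6 alone had a peak at -93665 bp from the Skap2 TSS (chr6:52056163-52056263), on the far side of the strongest site, with 27 tags at rank 1000, and one at 59287 bp from the Elf3 TSS, with 20 tags at rank 2142, the lowest tag count listed in A6. A6 was the deepest of the clones, and no peak was listed there in B8 or C4.

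**Figure D3:**
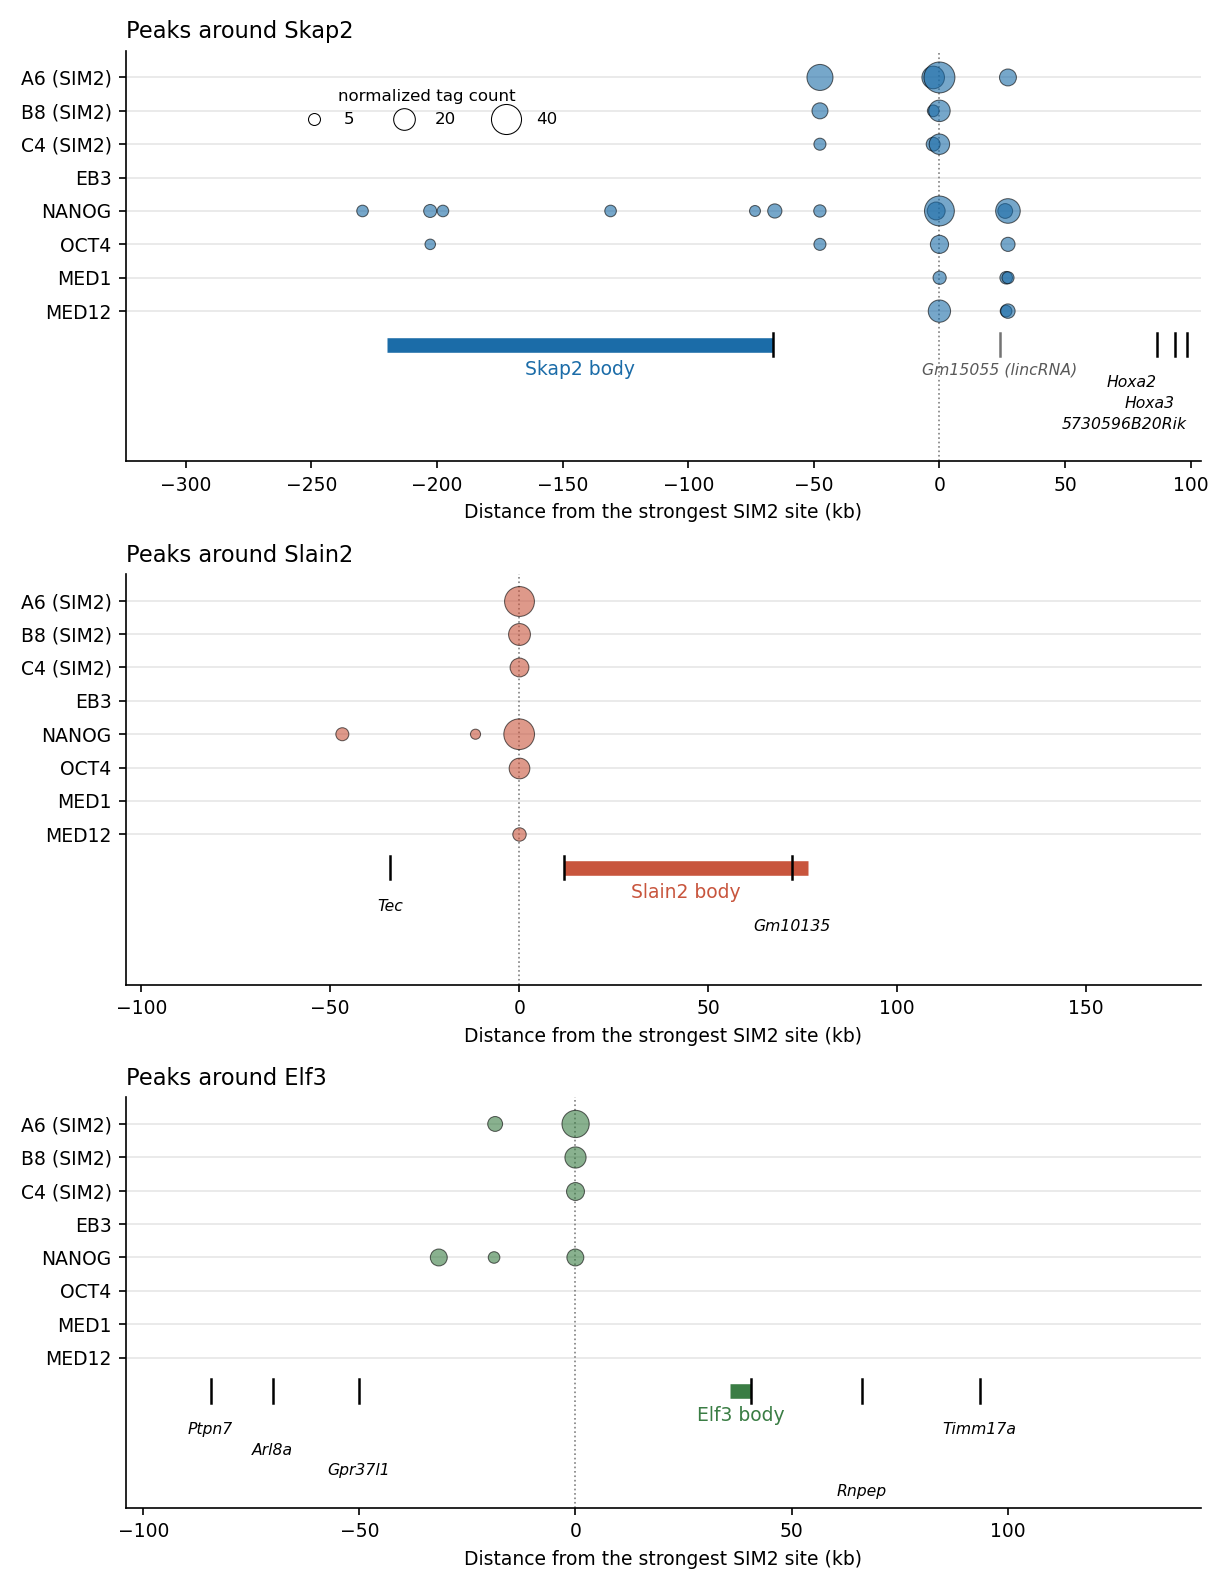
Peaks of the 8 lists (rows) by distance from the strongest SIM2 site of each gene (horizontal axis, kb), with point area rising with the normalized tag count, gene bodies as coloured bars and TSSs of the protein-coding neighbours named in the text as ticks, and the start of the lincRNA Gm15055 in grey. Around Skap2, peaks of several lists stack at 4 places, at 0, -2473, -47561 and 27283 bp, and around Slain2 and Elf3 mainly at the strongest site.

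The 3 strongest sites differed in the factors found with them. The Skap2 site had peaks of all 4 factors within 100 bp, the Slain2 site had NANOG, OCT4 and MED12, and the Elf3 site had NANOG only. Peaks of all 4 factors were not particular to the Skap2 site among the strongest sites. The sites near Sall1 and Klf5, at ranks 4 and 5, had them as well, whereas the site at rank 6 had no peak of any factor. Over the 1229 SIM2 sites, 82.0% had a NANOG peak, 46.2% an OCT4 peak, 12.0% a MED1 peak and 28.4% a MED12 peak. All 4 were found at 8.71% of the sites, and NANOG with none of the other 3 at 29.5%. Among the 100 strongest sites the shares were 93% for NANOG, 75% for OCT4, 27% for MED1 and 42% for MED12. The Elf3 site was therefore in the minority of strong sites without an OCT4 peak.

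NANOG had 94 tags at the Skap2 site (95% interval 76.0 to 115), a normalized tag count of 39.5 and rank 36 of 14815 peaks, or 55 by tags. At the Slain2 site it had 105 tags (85.9 to 127), a normalized tag count of 41.8 and rank 28. Both were near the top of the NANOG list, and they differed by less than the counting error. At the Elf3 site NANOG had 25 tags (16.2 to 36.9), a normalized tag count of 11.6 and rank 2418, against a median of 12.4 over the 1008 SIM2 sites with a NANOG peak. The NANOG peak at the Elf3 site was thus of middling size for a SIM2 site, and its counting interval lay below those of the other 2.

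OCT4 was strongest at the Slain2 site, with 99 tags (80.5 to 121), a normalized tag count of 18.1 and rank 3 of 2532 peaks. At the Skap2 site it had 79 tags (62.5 to 98.5), 13.6 normalized, at rank 22. The median over the 568 SIM2 sites with an OCT4 peak was 6.3. No OCT4 peak was listed within 100 kb of Elf3, which is the usual case, since 21.8% of the 22367 protein-coding genes had at least 1. The OCT4 library was the deepest of all, with 31.6 M tags, and its weakest listed peak held 24 tags.

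MED12 was stronger at the Skap2 site, with 47 tags (34.5 to 62.5), 21.3 normalized and rank 12 of 1071. At the Slain2 site it had 28 tags (18.6 to 40.5), 6.7 normalized and rank 407. By tags these ranks were 28 and 133, so the gap between the sites is wider by the normalized tag count than by tags, and the counting intervals overlap. MED1 had a peak at the Skap2 site only, with 29 tags (19.4 to 41.6), 6.4 normalized and rank 229 of 762, or 89 by tags. Its centre lay 83 bp from the centre of the site, and that of the Slain2 MED12 peak 80 bp, whereas the other factor peaks at the 3 sites lay within 37 bp. The lowest listed peak held 14 tags in both Mediator libraries, whose depths were 15.7 M (MED1) and 15.0 M (MED12).

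**Figure D4:**
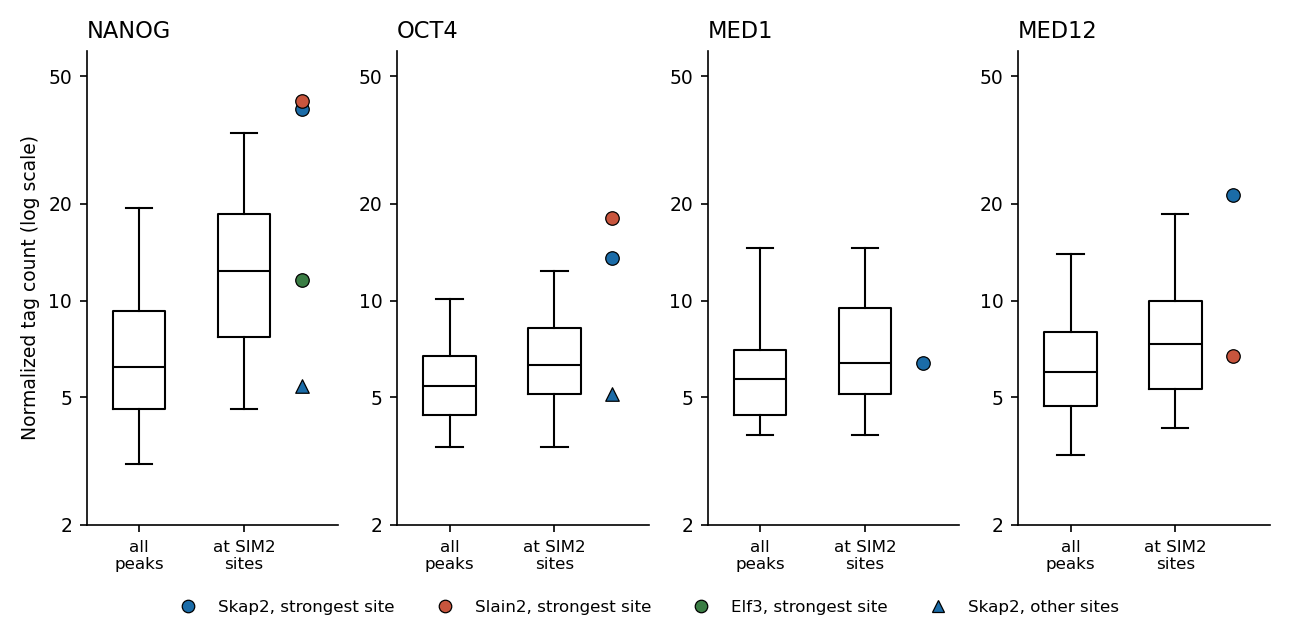
Normalized tag count (log scale) of NANOG, OCT4, MED1 and MED12 over all peaks of the list and over the peaks at the 1229 SIM2 sites (boxes, quartiles and median, whiskers at the 5th and 95th percentiles), with the sites near the 3 genes beside them. NANOG and OCT4 at the Skap2 and Slain2 sites and MED12 at the Skap2 site lie above the upper whisker, and NANOG at the Elf3 site, at 11.6, lies near the median of 12.4.

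**Figure D5:**
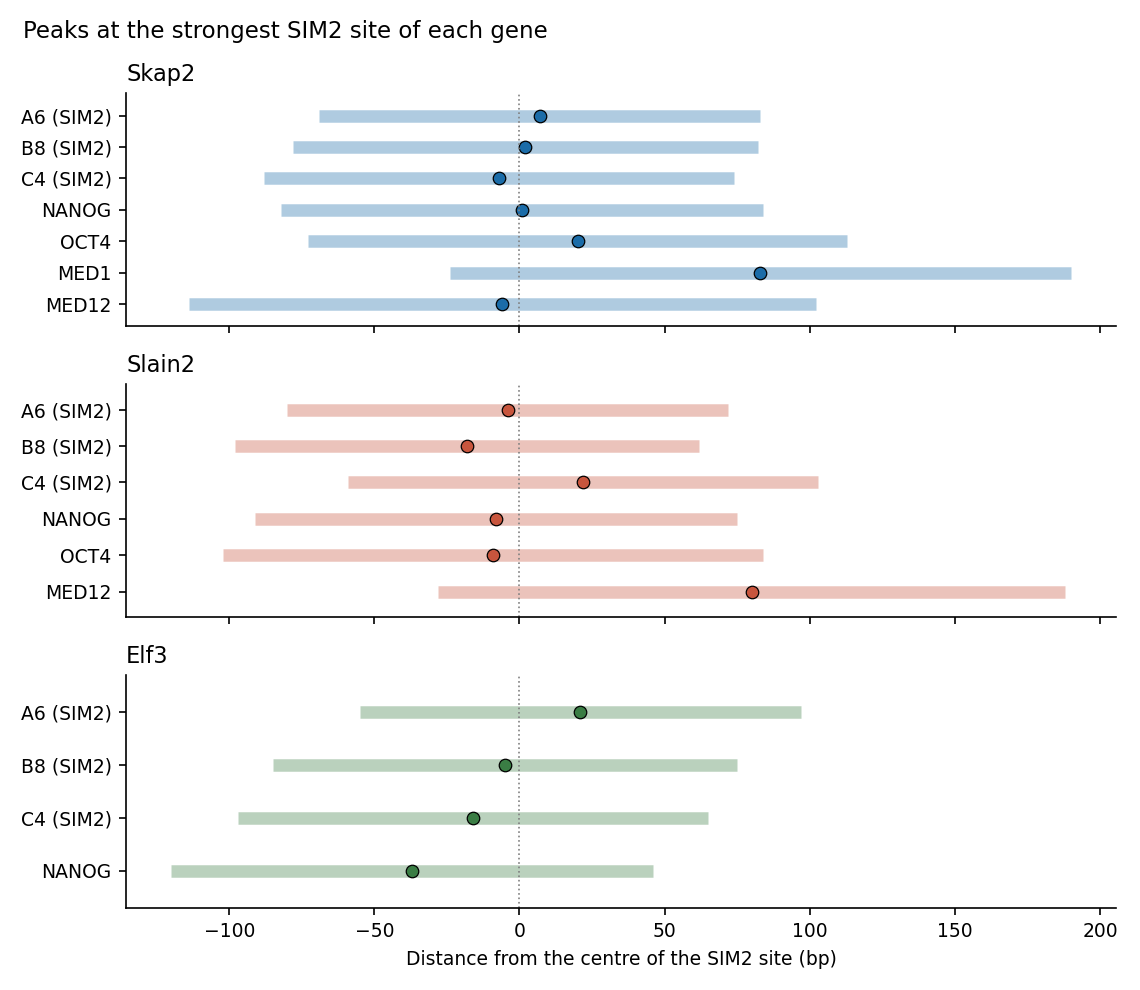
Peaks of each list at the strongest SIM2 site of the 3 genes, as bars of the list's peak width with the centre marked, by distance from the centre of the site (bp). At the Skap2 site the centres of 6 lists lie from -7 to 20 bp and that of MED1 at 83 bp, and at the Slain2 site MED12 lies at 80 bp.

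The further Skap2 sites held fewer factor peaks. The site at -18821 bp had NANOG with 13 tags (6.92 to 22.2) at rank 8199 and OCT4 with 30 tags (20.2 to 42.8) at rank 1278, both near the middle of their lists, and no Mediator peak. The site at -63909 bp had none of the 4 factors, even within 1000 bp. A NANOG peak of 29 tags at rank 1892 lay between it and the strongest site, -1287 bp from the latter.

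The site found in A6 alone at -93665 bp had all 4 factors. NANOG had 74 tags (58.1 to 92.9) at rank 244, OCT4 54 tags (40.6 to 70.5) at rank 388, and MED1 and MED12 18 tags each (10.7 to 28.4) at ranks 406 and 229. It thus carried stronger NANOG and OCT4 peaks than the 2 further sites with SIM2 in all clones. Its sequence, the last of those above, held ACGTG at -54 bp and the octamer at 94 bp from the centre. It lay in the lincRNA gene Gm15055, together with a further peak each of NANOG, MED12 and MED1. The A6-only peak near Elf3 had no factor peak within 100 bp, and its nearest NANOG peak, at 59540 bp from the Elf3 TSS, held 11 tags.

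In all, 11 NANOG, 4 OCT4, 3 MED1 and 3 MED12 peaks lay within 100 kb of the Skap2 body. As many NANOG peaks were found around 0.353% of all genes and around 1.47% of the 885 genes with a window of similar length. For OCT4, MED1 and MED12 the shares were 0.291%, 0.595% and 0.622% of all genes. Among the genes with a similar window they were 0.565%, 0.565% and 0.904%. All these shares include genes with no SIM2 site, whereas Skap2 was chosen for one. Since 82.0% of SIM2 sites had a NANOG peak and 46.2% an OCT4 peak, the low shares follow in part from that choice. 4 of the NANOG peaks lay inside Skap2, at ranks 6777 to 11998, with an OCT4 peak of 26 tags at one of them. A NANOG peak of 14 tags lay -845 bp from the Skap2 TSS, the only peak of any list in the window from 1 kb upstream to 300 bp downstream of a start near the 3 genes. Around Slain2 and around Elf3 there were 3 NANOG peaks each, a count that 24.8% of all genes reach, and the 2 outside the strongest site of Slain2 held 14 and 10 tags. A NANOG peak -31637 bp from the strongest site of Elf3 held 25 tags at rank 2418, equal to the NANOG peak at that site. No peak of any list lay inside the bodies of Slain2 or Elf3.

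The neighbouring genes were then listed, as the study assigns a site to the nearest starts on either side. The TSS of Skap2 was the nearest protein-coding start on the left of its site, and the starts on the right included those of Hoxa2 at 86482 bp, Hoxa3 at 93718 bp and 5730596B20Rik at 98567 bp. Hoxa2 and Hoxa3 encode homeobox factors that pattern the body axis. The nearest start of any kind was that of the lincRNA Gm15055, at 24018 bp. RefSeq names this gene Halr1, with Haunt among its synonyms, a long noncoding RNA gene known from mES cells for its place upstream of the HoxA cluster.

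The Slain2 site had the TSS of Slain2 at 11790 bp on the right and that of Tec, a cytoplasmic tyrosine kinase, at 34055 bp on the left. The only other start within 100 kb was that of Gm10135 at 72188 bp, inside the Slain2 body. With genes of every type, Slain2 remained the nearest. Over the 1229 SIM2 sites the median distance to the nearest protein-coding start was 25055 bp, so the Slain2 site lay closer than most sites to its gene, and the Skap2 and Elf3 sites farther.

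The Elf3 site had the TSS of Elf3 at 40690 bp on the right and that of Gpr37l1, an orphan G protein-coupled receptor, at 50101 bp on the left. Rnpep, an aminopeptidase, followed at 66302 bp, then Arl8a, a lysosomal small GTPase, at 70113 bp, Ptpn7, a tyrosine phosphatase, at 84446 bp, and Timm17a, a subunit of the mitochondrial import machinery, at 93563 bp. The starts of Elf3 and Gpr37l1 thus differed by less than 10 kb in their distance. Noncoding starts were nearer, those of the pseudogene Gm4204 at 14663 bp and of the lincRNA Gm16606 at 30779 bp. Expression of these neighbours was not analysed here, and distance alone does not tell which gene, if any, a site acts on.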

How the data were processed

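ChIP and input DNA of 14 samples were sequenced, and the 8 peak lists were used. The authors aligned reads to mm9 with BWA, discarded duplicates and ran HOMER on every library separately, with the matching input as background. The deposited normalized tag count is a signal scaled by the authors' peak caller to library size. The deposited score is the caller's own number, and the share of tags near the peak centre was deposited as a fraction. The total tags deposited are whole counts in 5 lists and scaled values in the others. Ratios of ChIP to input and p-values were deposited by the authors as well, and the p-values are not printed.

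The genes, patterns and lists were chosen with earlier results of these data known. Library depth was read from the equal steps between deposited values, under HOMER's default scale of 10 M (megatags), and 100% of peaks lay on such steps. Tags in A6, EB3 and OCT4 were recovered in the same way from the steps of the deposited total tags. On those steps lay 99.83% of the A6 peaks and 100% of the EB3 and OCT4 peaks. Depths ran from 12.91 M in NANOG to 31.56 M in OCT4, and exact Poisson 95% intervals cover counting error only. Peaks of the clones with centres within 100 bp were merged into sites of 100 bp, and sites matched by an EB3 peak at that distance were dropped. Factors were called at a site within 100 bp. Genes came from GENCODE vM1 (NCBIM37, the same assembly as mm9). Python 3.11.15, numpy 2.4.6, pandas 2.3.3, scipy 1.17.1 and matplotlib 3.10.9 were used, and the steps were tested on simulated data. No test across features was run, since the SIM2 signal chose the genes and the other ChIPs have no replicates. Named were the 3 genes, every SIM2 site in at least 2 clones near them, the protein-coding genes with a TSS within 100 kb of a strongest site (one is not reported here), the 2 sites next in rank, and other peaks that shared a site with SIM2, lay at a TSS or were the highest of their list near a gene. A few peaks outside that rule (those found in A6 alone, those within Gm15055 and the NANOG peak between the Skap2 sites) were named after their values were seen. The alternatives were the measure behind the ranks, each clone left out, the merging and overlap distances, the gene window, a threshold of 8 times the input, genes of all types and a shorter motif window. SOX2 ChIP was not analysed here.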

Additional observations from a re-analysis of the deposited data

How the results depend on the processing

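Of 76 alternative values of the ranks and counts, 64 were unchanged within the spread of the clones or within 1.5 times, and 12 moved. The Skap2 site stayed at rank 1 under every measure and with any clone left out, and the Slain2 site at rank 2 with any clone left out, but the mean fold over the input put it at 4, since its A6 input was higher. The Elf3 site ranged from 3 to 6 with a clone left out. By all tags of the peak per 10 M, a measure added after seeing the data, the ranks were 1, 2 and 3. The number of SIM2 sites did not change with a clone left out, but the Skap2 count of 3 fell to 1 within 50 kb and to 2 at 8 times the input. The factor peaks near Skap2, 21 in all, fell to 8 at 8 times the input and to 9 within 50 kb. Those near Slain2 fell from 5 to 2 at 8 times the input, and those near Elf3 from 3 to 1 under both settings. At 8 times the input, MED1 was left at 0 of the 5 sites and MED12 at 1, while NANOG went from 4 to 3 and OCT4 from 3 to 2. With genes of all types the nearest start was at 24018 bp for the Skap2 site and 14663 bp for the Elf3 site. The central 100 bp of the Elf3 site held 0 of its 2 motif matches. Of 25 ranks of single peaks, 9 moved by over 1.5 times when all tags replaced the normalized tag count, in the B8, C4, NANOG and Mediator lists, which limits how finely those ranks can be read.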

Other observations

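The windows of the SIM2 sites near the 3 genes were compared with each other after their sequences had been seen. The longest run shared by 2 of the 5 sites found in all 3 clones was AAGTCACGAA, on the plus strand of the Skap2 site at -63909 bp and on the minus strand of the Elf3 site. It was present in 3 of the 1229 windows of 200 bp around SIM2 sites (0.244%), and in 5 of the 14815 windows around NANOG peaks (0.0337%). Its inner 8 bases, AGTCACGA, were present in 7 SIM2 windows (0.57%) and in 15 NANOG windows (0.101%). At the Skap2 site the run ends in the ATTCNNNNC match ATTCGTGAC read on the other strand, and the Elf3 site has no such match. Every pair of windows was searched on either strand. With the A6-only sites included, a longer run, AAAGGCCTTTG, was shared by the strongest Skap2 site and the A6-only site near Elf3. This longer run was present in 0.0814% of the SIM2 windows and 0.0607% of the NANOG windows. The counts include the sites in which the runs were noticed, they are small, and no test was made.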
